A study of Mus musculus with 8 samples.

Results

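The Abcg5/Abcg8 sterol exporter and 7 genes that work beside it in sterol efflux, uptake, esterification and receptor turnover were followed in newborn mouse liver. The 9 genes were Abcg5, Abcg8, Abca1, Abcg1, Scarb1, Npc1l1, Lcat, Soat2 and Mylip, out of 34741 gene and transcript names carried by the array. Their 11 non-control probes were found by the gene name in the scanner files. The set was chosen from the knockout against wild-type signals of these same arrays, in which Abcg5 was already known to be low, so that contrast is described here for the 9 genes with no p-value. Where the fit over all genes called one of them, this is given only as a description and supports nothing.

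The study measured liver RNA on 8 single-colour Agilent arrays, 4 per genotype, and asked what the loss of the miR-379/miR-410 microRNA cluster changes in the liver just after birth. Knockout mice had inherited the deletion from the mother, and the controls were wild-type littermates, all on a C57BL/6J background. The pups, taken by caesarean at E19.5 (E for embryonic day), lived for 4 h before the livers were collected, and RNA came from pieces of the large lobe. The labels name no tissue-specific driver for the deletion and give no sex for the pups.

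The deleted cluster lies on chromosome 12, and the RefSeq table (GRCm38.p6) held 36 microRNA genes from Mir379 to Mir410. Mature microRNAs of its first and last genes are shown because they give the deleted cluster its name. Their levels were not measured here. Capitals mark the seed, bases 2 to 8, which pairs with target RNAs.
mmu-miR-379-5p: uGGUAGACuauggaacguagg
mmu-miR-410-3p: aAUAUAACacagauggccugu

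Cholesterol cannot be broken down by the animal, so the liver disposes of it by secreting it into bile, as such or after conversion to bile acids. ABCG5 and ABCG8 form a transporter only as a pair, in the canalicular membrane of hepatocytes and in the brush border of the intestine, and loss of either causes sitosterolaemia, a disease in which plant sterols accumulate. ABCA1 and ABCG1 pass cholesterol to high-density lipoproteins, and the oxysterol receptors LXR-alpha (Nr1h3) and LXR-beta (Nr1h2) are known activators of all 4 transporter genes. The 2 genes Abcg5 and Abcg8 lie head to head and are read in opposite directions from 1 shared promoter.

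That shared stretch is shown because the values below move together for the 2 genes. Between the Abcg5 start on the minus strand and the nearest Abcg8 start on the plus strand of the RefSeq table lie 109 bases, at chr17:84683012-84683120 (GRCm38.p6), of which 45.9% are G or C. It is printed 5′ to 3′ on the minus strand, so that it ends at the base before the Abcg5 start. Capitals mark GATA boxes, the motif AGATAA or TGATAA on either strand.
Abcg5-Abcg8: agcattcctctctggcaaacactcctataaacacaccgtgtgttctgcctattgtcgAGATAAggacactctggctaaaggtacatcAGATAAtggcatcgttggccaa
Both boxes are AGATAA on the Abcg5 strand, and they end 47 and 17 bases before the Abcg5 start. Windows from 250 bases before to 50 after the start were available for 6 of the 9 genes (7 windows). The windows of Abcg5 and the nearest Abcg8 start share 209 bases and each held 3 GATA boxes, the third lying after the Abcg5 start. Of 32851 promoter windows of this length in the table, 18.6% held at least 1 such box and 0.502% at least 3. Neither window, nor those of the other 4 genes, held an LXR element in this search (AGGTCA repeated after any 4 bases, either strand, up to 2 mismatches), which 3.02% of all windows held. The search for an HNF4 element (AGGTCA repeated after any 1 base, up to 2 mismatches) and for the sterol regulatory element (up to 1 mismatch) also found no match in these windows, against 3.86% and 1.95% of all windows. The E-box CACGTG, present in 7.15% of all windows, was found in the Abca1 window, and Npc1l1 and Lcat had 1 GATA box each. A match here is only a match of letters, and no match in these windows does not mean that a gene lacks the element.

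Levels below are log2 signals relative to the 75th percentile of the array's non-control spots, and a difference is knockout minus wild-type on that log2 scale with its standard error (SE). The level of 1 probe says nothing about that of another, since probes differ in brightness. Between 58.6% and 66.2% of spots were well above background, and no spot was saturated. Mirg, a noncoding RNA from the microRNA-rich part of the domain, fell from 2.16 ± 0.06 to -0.54 ± 0.33 (SD, n = 4 arrays each; limma adjusted p = 0.000327), as a check of the labels. Mirg stayed well above background on all 4 knockout arrays, at -0.20, -0.31, -0.91 and -0.73. The liver itself was well marked: all 10 hepatocyte markers, among them Alb, were well above background on every array. Replicate 4 of each group may not be an independent animal, because knockout 4 carried both Xist (-0.14), a transcript of the inactive X chromosome, and the Y-linked Ddx3y (1.81) well above background. Wild-type 4 had a lower Ddx3y level (1.39) than wild-type 1 and 2 (2.21 each). Values without both replicate 4 arrays, 3 per group, are therefore given too. All arrays lay on 1 slide, wild-type arrays filling 1 column and knockout arrays the next, so a column effect and a genotype effect cannot be told apart.

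Abcg5, which encodes 1 of the 2 subunits of the sterol exporter, had the clearest difference of the 9 genes. Its single probe, a 60-base oligonucleotide at chr17:85057593-85057652 (mm9, minus strand), gave processed signals of 2569, 2270, 1876 and 2041 units on wild-type arrays 1 to 4. On knockout arrays 1 to 4 the signals were 739.8, 610.6, 772.7 and 668.7 units. All 4 knockout values lay far under all 4 wild-type values, and no array of either group stood apart from its group. On the log2 scale the levels were 2.00, 2.16, 1.81 and 1.93 in wild-type and 0.34, -0.01, 0.39 and 0.27 in knockout livers. The lowest wild-type array lay 1.42 above the highest knockout array. The mean went from 1.97 ± 0.15 to 0.25 ± 0.18 (SD, n = 4 each), a difference of -1.73 (SE 0.11, 95% interval -1.98 to -1.47). Signal in knockout livers was thus 30.2% of wild-type, or 3.31-fold lower. Without replicate 4 the difference was -1.75 (SE 0.15). Since these are pieces of whole liver, fewer cells with Abcg5 RNA and less Abcg5 RNA per cell cannot be told apart.

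Abcg8, the obligate partner, was also lower, though its probe was dim. The probe lies at chr17:85098745-85098804 (mm9, plus strand), 41.2 kb from that of Abcg5, and was well above background on all 8 arrays. Signals were 115.9, 111.3, 71.71 and 95.92 units on wild-type arrays 1 to 4 and 53.87, 37.47, 46.2 and 40.88 units on knockout arrays 1 to 4. The groups again did not overlap, and wild-type 3 and knockout 2 were the lowest of their groups. The mean level went from -2.51 ± 0.29 to -3.73 ± 0.25 (SD, n = 4 each), a difference of -1.22 (SE 0.17, 95% interval -1.61 to -0.83), so that knockout signal was 43.0% of wild-type. Without replicate 4 it was -1.20 (SE 0.23). This size depends on how the background is handled: with normexp background correction, which adds an offset of 50 to every signal, the difference was -0.63, and in the deposited value table, which follows the signal before background subtraction, it was -0.77.

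**Figure D1:**
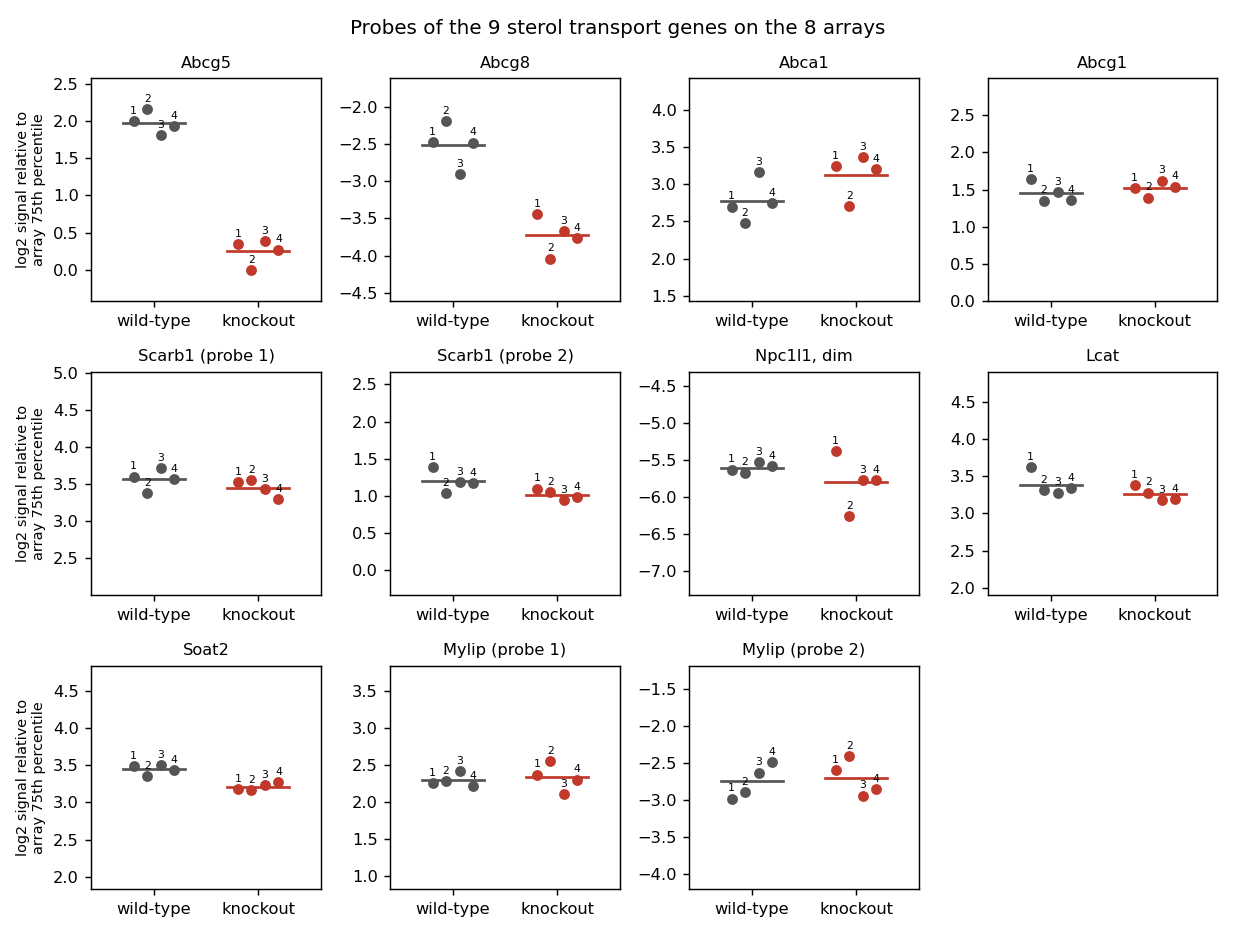
Log2 signal relative to the array's 75th percentile (vertical axes, all spanning the same number of log2 units) for each of the 11 probes in wild-type and knockout livers; points are arrays, numbered by replicate, and lines are group means. Abcg5, Abcg8 and, by a narrow margin, Soat2 show no overlap between the groups; the Npc1l1 probe, marked dim, was well above background on none of the 8 arrays.

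The log2 signal of Abcg8 minus that of Abcg5 was followed within the arrays, where only its change between arrays can be read and not its size. It was -4.47, -4.35, -4.71 and -4.41 in wild-type 1 to 4. The values were -3.78, -4.03, -4.06 and -4.03 in knockout 1 to 4. The group means were -4.49 ± 0.16 and -3.98 ± 0.13 (SD, n = 4 each), so the 2 probes changed unequally, with a gap of 0.51 between the groups. With normexp the 2 genes differed between genotypes by -1.66 (Abcg5) and -0.63 (Abcg8), so the size of this gap depends on the background handling. Among arrays of 1 genotype the 2 genes kept much the same order: wild-type 2 was the highest and wild-type 3 the lowest for both, and knockout 2 was the lowest knockout array for both.

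The labels give no sex, so the arrays were also set side by side by their Ddx3y signal. Ddx3y was well above background in wild-type 1, 2 and 4 and in knockout 3 and 4, and not in wild-type 3, knockout 1 and knockout 2. Xist was well above background in knockout 1, 2 and 4, so wild-type 3 carried neither transcript above background. Among arrays with Ddx3y, Abcg5 stood at 1.93 to 2.16 in wild-type and at 0.27 to 0.39 in knockout livers. Among those without it, Abcg5 stood at 1.81 in the wild-type array and at -0.01 and 0.34 in the knockout arrays. For Abcg8 the matching levels were -2.48 to -2.19 against -3.76 to -3.67, and -2.90 against -4.04 and -3.44. The side without Ddx3y holds 1 wild-type array. With Ddx3y as a covariate the differences were -1.68 (SE 0.10) for Abcg5 and -1.16 (SE 0.17) for Abcg8. With Xist they were -1.57 (SE 0.18) and -1.20 (SE 0.30). Because Xist was well above background in knockout arrays only, that covariate is partly confounded with genotype.

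Abca1, the exporter that loads cholesterol onto apolipoprotein A-I, did not share the low values. Its levels were 2.70, 2.48, 3.16 and 2.75 in wild-type and 3.24, 2.71, 3.37 and 3.20 in knockout livers. The groups overlapped, since wild-type 3 lay above knockout 2. The difference was 0.36 (SE 0.18, 95% interval -0.05 to 0.77), and 0.33 without replicate 4. Abcg1, which moves cholesterol to mature high-density lipoprotein and is prominent in macrophages, differed by 0.06 (SE 0.09, 95% interval -0.14 to 0.27), with wild-type arrays at 1.35 to 1.64 and knockout arrays at 1.39 to 1.62.

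Scarb1 encodes SR-BI, the receptor through which hepatocytes take cholesterol esters from high-density lipoprotein. Its brighter probe (chr5:125757483-125757542, mm9) had levels of 3.60, 3.38, 3.71 and 3.57 in wild-type and 3.53, 3.55, 3.43 and 3.30 in knockout livers. The groups overlapped and the difference was -0.11 (SE 0.10). The second Scarb1 probe, 4 kb away at chr5:125761540-125761599, differed by -0.18 (SE 0.09), with wild-type 2 inside the knockout range. Npc1l1, the sterol importer that opposes Abcg5/Abcg8 in the gut, had a single probe with signals of only 8.013 to 14.04 units. None of the 8 arrays read it well above background, so no difference is given for it.

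The enzymes that esterify cholesterol differed little. Lcat, secreted by the liver to esterify cholesterol on lipoproteins, had levels of 3.28 to 3.62 in wild-type and 3.18 to 3.38 in knockout livers, a difference of -0.13 (SE 0.10). Wild-type 1 was the highest array, and without it the difference was -0.05. Soat2, the hepatocyte enzyme that stores cholesterol as esters and feeds them into secreted lipoproteins, had levels of 3.49, 3.35, 3.50 and 3.43 in wild-type and 3.18, 3.17, 3.23 and 3.27 in knockout livers. These groups did not overlap, by a margin of 0.07. The Soat2 difference was -0.23 (SE 0.07, 95% interval -0.39 to -0.07), that is 85.2% of the wild-type signal, and -0.25 without replicate 4.

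Mylip, also called Idol, is a ubiquitin ligase of lipoprotein receptor turnover and another known LXR target. Its 2 probes, at chr13:45506979-45507038 and chr13:45503808-45503867 (mm9), each differed by 0.05 (SE 0.10 and 0.15). Wild-type arrays spanned 2.21 to 2.42 and knockout arrays 2.11 to 2.55 on the brighter probe, so the groups overlapped throughout.

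Of the 9 genes, 8 passed the filter on dim probes, and 5 of these had lower and 3 higher means in knockout livers. The test across all 23540 genes called 2 of them lower (Abcg5 and Abcg8), where 0.178% of all genes were called lower, and none higher, where 0.0382% were. Without replicate 4 it called 1 lower (Abcg5), where 0.0255% of all genes were called. Groups failed to overlap on the low side for 3 genes (Abcg5, Abcg8 and Soat2), against 4.33% of all genes, and on the high side for none, against 4.72%. The choice of the genes used this contrast, so these counts only describe them. In order of difference over all genes, Abcg5 ranked 56 and Abcg8 113 from the most negative. Abcg5 was called in all 22 other settings that were run. Abcg8 was called in 10 of them, and its call was lost when any single array other than wild-type 3 was left out, with differences of -1.31 to -1.11 in those 7 fits. Without wild-type 3 it was called, at -1.35.

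**Figure D2:**
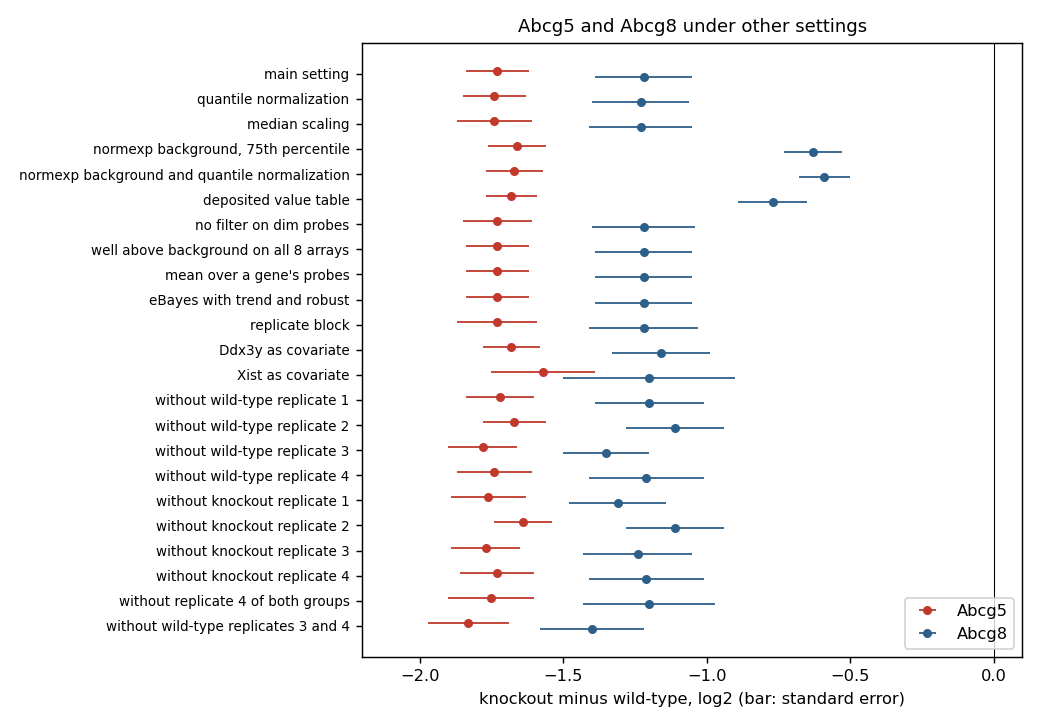
Knockout minus wild-type log2 difference (horizontal axis) of Abcg5 and Abcg8 in the main setting and 22 others (rows); bars are standard errors. Abcg5 ran from -1.83 to -1.57, whereas Abcg8 ran from -1.40 to -0.59, with its 3 smallest sizes in the 2 normexp settings and the deposited value table.

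Neighbouring genes were compared because Abcg5 and Abcg8 lie side by side. This window was chosen after the values were seen. Within 500 kb of the 2 probes on mm9 chromosome 17, 18 other kept probes read 8 genes with a symbol and 3 unnamed intergenic transcripts. None was called by limma in either direction, and none had an unadjusted p under 0.05. Dync2li1, a dynein chain gene whose probe lies 13.5 kb on the Abcg5 side, differed by 0.16 (SE 0.10). Lrpprc, a mitochondrial RNA-binding protein gene with its probe 47.0 kb away, just beyond Abcg8, differed by 0.06 (SE 0.08). The 18 probes ran from -0.50 to 0.16, with a median of 0.07. Of the 18, 8 read the 3 intergenic transcripts, which overlap at 1 locus, so they are not separate neighbours.

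**Figure D3:**
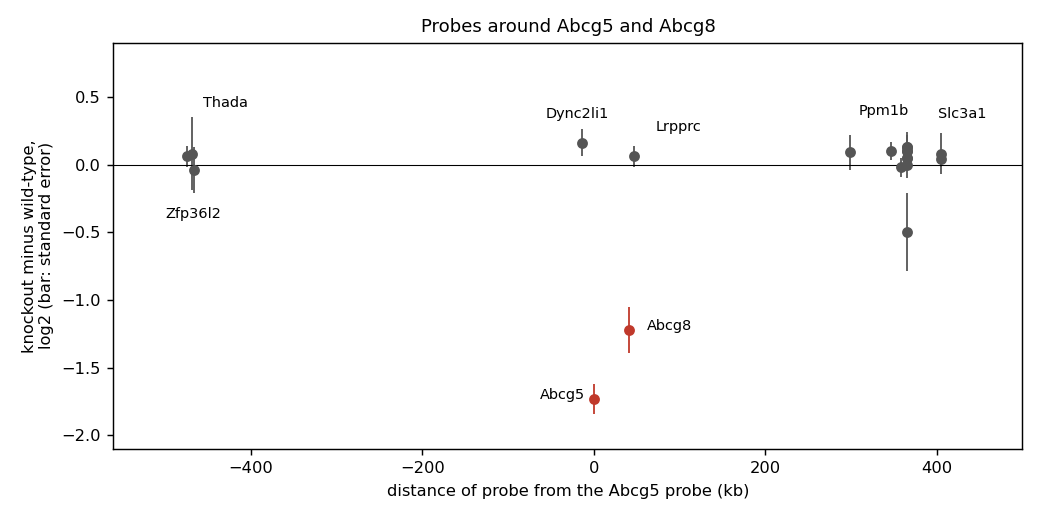
Knockout minus wild-type log2 difference (vertical axis) of every kept probe within 500 kb of Abcg5 and Abcg8, by distance from the Abcg5 probe in kb; bars are standard errors. The 2 sterol exporter genes (red) lie at -1.73 and -1.22, and the other 18 probes between -0.50 and 0.16.

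Among ATP-binding cassette genes, the family of membrane pumps to which the exporter belongs, 44 of 50 on the array were tested. The 40 outside the 9 genes had a median difference of -0.02, beside 0.027 for all genes tested, with 22 below and 18 above 0. limma called 0 of the 40 in either direction. Of the 40, 4 were lower and 3 higher at an unadjusted p under 0.05, where 6.48% and 6.84% of all genes were. Their differences ran from -0.47 to 0.38. At the low end was Abcb11, the bile salt export pump, which went from 4.01 ± 0.22 to 3.54 ± 0.10 (limma adjusted p = 0.153). At the high end was Abcg2, an exporter of drugs and urate, which went from 5.15 ± 0.23 to 5.53 ± 0.07 (limma adjusted p = 0.221). Abcb4, which flips the phospholipid that must accompany cholesterol into bile, differed by -0.17 (SE 0.13, limma adjusted p = 0.585).

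**Figure D4:**
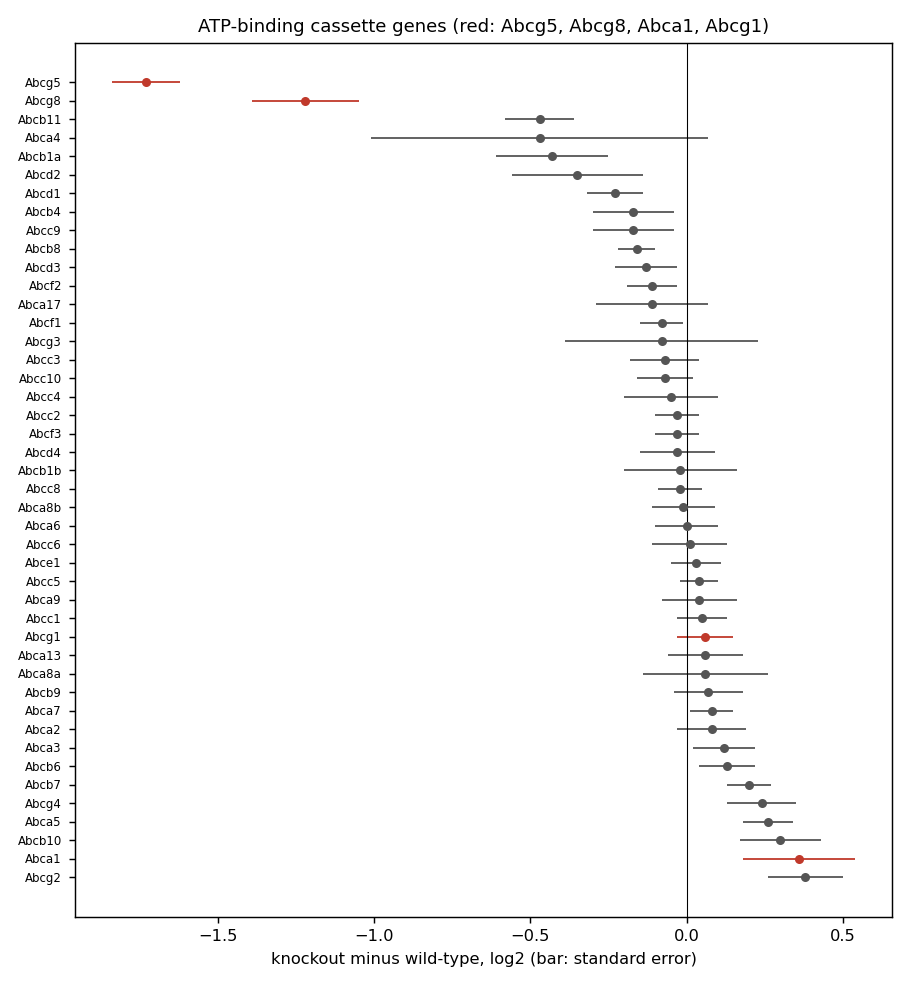
Knockout minus wild-type log2 difference (horizontal axis) of the 44 tested ATP-binding cassette genes (rows, sorted); bars are standard errors and red marks the 4 genes of the sterol set. Abcg5 and Abcg8 lie apart at -1.73 and -1.22, and the other genes lie between -0.47 and 0.38.

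The genes whose profile over the 8 arrays was most like that of Abcg5 were found by the root mean square distance between profiles centred on their own means, among 15245 genes with a symbol. The nearest were Slco1b2, a hepatocyte uptake transporter of organic anions (distance 0.162 log2), Akr1c6 (0.177) and Akr1c20 (0.223), aldo-keto reductases, and the carboxylesterases Ces3a (0.244) and Ces3b (0.272). Their differences ran from -2.14 to -1.43. Near Abcg8 were again Slco1b2 (0.217), then Fabp2, a fatty acid binding protein of enterocytes (0.219), Bhmt, an enzyme of methionine remethylation (0.231), and Cbr2, a carbonyl reductase (0.244). Abcg5 and Abcg8 lay 0.284 from each other. Each was at rank 8 from the other among all 23540 genes tested, unnamed transcripts and the sterol genes included. The gap between the genotypes that these profiles share was fixed by the choice of Abcg5, so it is given without a test.

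The wider sterol pathways were described by 7 lists with 101 genes outside the 9, of which 100 were tested. limma called 0 of the 100 in either direction, with 8 arrays or with 6. At an unadjusted p under 0.05, 16 were lower and 12 higher, where 6.48% and 6.84% of all genes were. Means were below 0 for 46 and above 0 for 54 of the 100, and for 10240 and 13300 of all 23540 genes. The median difference of the 100 was 0.01, beside 0.027 for all genes.

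The receptors and factors known to act on Abcg5 and Abcg8 had a median of -0.08 over 12 genes, with 9 below 0. LXR-alpha (Nr1h3) had levels of 3.47, 2.94, 2.52 and 2.76 in wild-type and 2.77, 2.88, 2.74 and 2.69 in knockout livers. The groups overlapped and differed by -0.16 (SE 0.18, limma adjusted p = 0.724). LXR-beta (Nr1h2) stood at 4.09 ± 0.11 and 4.09 ± 0.04 (limma adjusted p = 0.998). Nr0b2, the repressor SHP, had the widest gap of the list (-1.33, SE 0.38, limma adjusted p = 0.204) and overlapped between the groups. The Nr0b2 probe was dim, with a wild-type mean of -3.83 and a knockout mean of -5.16, beside a knockout mean of -3.73 for Abcg8. Its knockout 1 value (-5.88) fell among those of the Npc1l1 probe (-6.26 to -5.38). The part of background handling in the Nr0b2 difference was not tested. FXR (Nr1h4), the activator of SHP, stood -0.35 from wild-type (SE 0.13, limma adjusted p = 0.300). The LXR partner receptor Rxra stood 0.28 from wild-type (SE 0.20, limma adjusted p = 0.561). The GATA factors, named here because of the boxes printed above, differed by -0.14 (Gata4, SE 0.16) and -0.03 (Gata6, SE 0.15).

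Other LXR targets had a median of 0.01 over 15 genes. Srebf1, which drives fatty acid synthesis, differed by 0.24 (SE 0.24, limma adjusted p = 0.682), Lpcat3, a phospholipid remodelling enzyme, by 0.43 (SE 0.12, limma adjusted p = 0.198) and Scd1, a fatty acid desaturase, by 0.45 (SE 0.21, limma adjusted p = 0.397). Cyp7a1, the rate-limiting enzyme of bile acid synthesis, went from 3.45 ± 0.35 to 2.86 ± 0.22 (limma adjusted p = 0.228). Of the 15, 6 had lower and 9 higher means in knockout livers.

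Lipoprotein and reverse cholesterol transport genes had a median of -0.03 over 19 tested genes. Lipc, the hepatic lipase that remodels high-density lipoprotein, came closest to the threshold of the 100. Its levels were 1.44, 1.34, 1.40 and 1.39 in wild-type and 1.02, 0.87, 0.97 and 0.99 in knockout livers. The groups did not overlap and the difference was -0.43 (SE 0.06, limma adjusted p = 0.0513). It passed in 7 of 22 other settings, with limma adjusted p from 0.0168 to 0.498 over all of them. Apoc3, an inhibitor of triglyceride clearance, differed by -0.71 (SE 0.20, limma adjusted p = 0.200), with wild-type 1 (5.61) above the other wild-type arrays, and passed without that array (-0.49, limma adjusted p = 0.0457).

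Cholesterol synthesis enzymes had a median of 0.43, with 18 of 20 above 0, where 13300 of all 23540 genes were above 0. limma called 0 of the 20, and 7 were higher at an unadjusted p under 0.05, against 6.84% of all genes. Tm7sf2, a sterol reductase, differed by 0.27 (SE 0.07, limma adjusted p = 0.180), Fdps by 0.43 (SE 0.15, limma adjusted p = 0.286) and Ebp by 0.18 (SE 0.07, limma adjusted p = 0.329).

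Bile acid and oxysterol enzymes, the other route by which cholesterol leaves the liver, had a median of -0.29 over 12 genes, with 10 below 0, where 10240 of all 23540 genes were below 0. limma called 0 of the 12, and 7 were lower at an unadjusted p under 0.05, against 6.48% of all genes. Cyp39a1, an oxysterol hydroxylase, differed by -0.59 (SE 0.11, limma adjusted p = 0.0874) and Amacr, a racemase of side-chain shortening, by -0.61 (SE 0.17, limma adjusted p = 0.194). For Baat, the enzyme that joins bile acids to taurine or glycine, the difference was -0.83 (SE 0.23, limma adjusted p = 0.191). Its levels in wild-type 3 and 4 (-1.82 and -2.09), the arrays highest in pancreas markers, lay above wild-type 1 and 2 (-2.79 and -2.70). Knockout arrays stood at -3.42 to -2.87. The Baat probe was also dim, with a wild-type mean of -2.35 beside -2.51 for Abcg8. The part of pancreas signal or background handling in the Baat difference was not tested. Intracellular sterol handling genes had a median of 0.01 over 18 genes. Stard5, a sterol carrier, differed by -0.50 (SE 0.10, limma adjusted p = 0.110), Insig2, which retains the SREBP complex, by -0.54 (SE 0.13, limma adjusted p = 0.146) and Nceh1, a cholesterol ester hydrolase, by 0.39 (SE 0.09, limma adjusted p = 0.146). The 8 canalicular exporters had a median of 0.02.

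**Figure D5:**
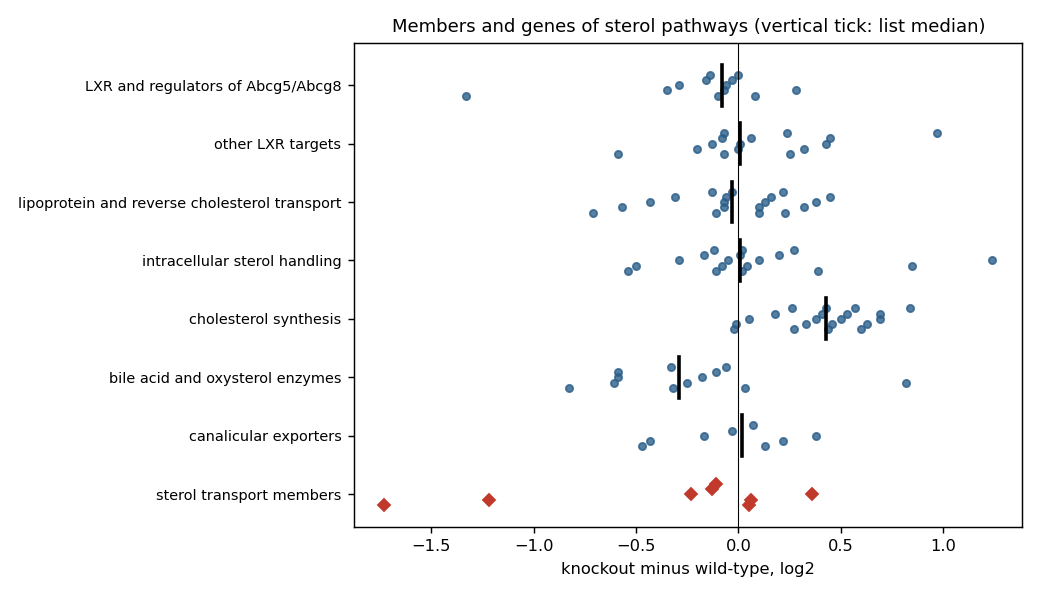
Knockout minus wild-type log2 difference (horizontal axis) of each tested gene of 7 pathway lists (blue points; black ticks are list medians) and of the 8 tested sterol transport genes (red diamonds). The list medians run from -0.29 to 0.43, and Abcg5 at -1.73 lies beyond every pathway gene.

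Markers of other tissues were checked because Abcg5 and Abcg8 are also intestinal genes and because pancreas markers differed among the arrays. Pancreas markers summed to 22.0 to 144 times the 75th percentile signal in wild-type and 14.2 to 22.7 times in knockout livers. Their mean, relative to wild-type, was 2.18 and 1.31 in wild-type 3 and 4, against -0.99 and -2.49 in wild-type 1 and 2. Abcg5 was lower in wild-type 3 and 4 (1.81 and 1.93) than in wild-type 1 and 2 (2.00 and 2.16). Without wild-type 3 and 4 the differences were -1.83 for Abcg5 and -1.40 for Abcg8.

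Enterocyte markers summed to 17.7 to 22.4 in wild-type and 17.4 to 30.3 in knockout livers, a sum in which Krt20 and Anpep weigh most. Their mean log2 level, relative to wild-type, was -0.30 to 0.20 in wild-type and -0.36 to -0.11 in knockout livers. The gut transcription factors Cdx1 and Cdx2, the gut cadherin Cdh17 and the glucose transporter Slc5a1 were well above background on none of the 8 arrays. The markers of this list that were read well above background on all 8 arrays went different ways. Fabp2 had levels of 1.11 to 1.80 in wild-type and 0.08 to 0.76 in knockout livers, whereas Krt20, a keratin, had levels of 1.73 to 2.71 and 2.29 to 4.03. Krt20, Vil1, Lct, Guca2a and Anpep overlapped between the groups, and Fabp2 did not. Hepatocyte markers summed to 4680 to 5560 and 5040 to 5210, with a median difference of -0.03 over 10 genes. Stellate cell markers summed to 165 to 185 in wild-type and 124 to 151 in knockout livers (10 of 10 well above background on all arrays, median difference -0.27). limma called 0 of the 10, and the bright matrix genes, such as Dcn and the collagens, weigh most in this sum. Col1a1, Col1a2, Col3a1, Des and Pdgfrb did not overlap between the groups, whereas Lrat, Rgs5 and Reln did. Macrophage markers summed to 215 to 288 and 218 to 251, endothelial markers to 67.3 to 94.9 and 65.2 to 73.8, cholangiocyte markers to 6.67 to 7.77 and 6.08 to 7.17, and erythroid markers to 1440 to 2130 and 1900 to 2040. The erythroid list had a median difference of 0.28 over 9 genes, and limma called 0 of them. Relative to wild-type, its mean was -0.42, 0.27, 0 and 0.15 in wild-type 1 to 4 and 0.24 to 0.31 in knockout livers. The part of erythroid cells in the Abcg5 and Abcg8 values was not tested. Whether the lower signal of part of the stellate cell list reflects fewer cells, and its part in the Abcg5 and Abcg8 values, was not tested.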

How the data were processed

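Values came from the authors' deposited Agilent Feature Extraction 10.10 files, which give spot intensity on a linear scale on an array design built on mm9, per the file headers. The series matrix, deposited by the authors in log2 units, followed each array's log2 median signal (r from 0.99995 to 0.999994), with column medians of 8.84 to 8.86 and no centring of genes; its normalization is not given in the sources used here.

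Processed signals were put on a log2 scale and centred on the 75th percentile of non-control spots in each array. Control and outlier spots were left out, as were 87 probes whose spots were all outliers on an array, and spots of a probe were averaged. A probe was kept if well above background on at least 4 of 8 arrays, and a gene was its kept probe with the highest mean. Names were updated through RefSeq accessions (GRCm38.p6, names only) for 27235 of 55681 probes and through synonyms for 565. Promoter and microRNA sequences are RefSeq's (GRCm38.p6).

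Groups were compared with limma 3.58.1 (R 4.3.3; lmFit, eBayes), two-sided, without covariates, with Benjamini-Hochberg adjustment over 23540 genes and a threshold of 0.05. Values of single probes came from the same fit over all 33769 kept probes. The code was tested on simulated data. Named genes were the 9, up to 3 genes of each pathway list with the smallest p, a fixed set (Nr1h3, Nr1h2, Srebf1, Abcb11, Abcb4, Abcg2, Cyp7a1, Mirg, Alb), the 5 nearest profiles of Abcg5 and of Abcg8, and markers that moved; a few genes these rules name are not reported here. The members, lists and rules were chosen with earlier results of these data known. Alternatives were the normalization, background correction, filter, probe rule, variance model, sex-linked covariates, the replicate number as a block, the deposited values and leaving out arrays. The number of arrays limits the precision: 95% intervals reached a median of 0.26 to each side of the difference.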

Additional observations from a re-analysis of the deposited data

Results flagged for a closer look

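Among 98 sets of 4 same-genotype values, a single array stood well away from its group in 5, where chance would do so in about 1 of 20. The Abcg8 minus Abcg5 value of knockout 1 (-3.78) lay above those of the other knockout arrays (-4.06 to -4.03). Apoc3 in wild-type 1 (5.61) lay above the other wild-type arrays (4.69 to 4.73), and so did Amacr (4.98, others 4.33 to 4.40). Rxra in knockout 2 (-1.32) lay below the other knockout arrays (-0.73 to -0.64). The endothelial marker mean of wild-type 1 (0.30, relative to the wild-type mean) lay above the others (-0.12 to -0.09).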

How the results depend on the processing

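Abcg5 moved by less than its replicate spread in all 22 settings (-1.83 to -1.57). Abcg8 kept its sign in all 22 and moved by more in 3: -0.63 with normexp background correction, -0.59 with normexp and quantile normalization and -0.77 in the deposited value table. Of the others, Abca1 (0.66), Abcg1 (0.19) and Mylip (-0.20) moved by more with Xist as covariate, which is partly confounded with genotype. Mylip was also below 0 without knockout 2 (-0.02) and at 0 with Ddx3y as covariate.

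Main counts were 42 genes lower and 9 higher. Lower counts were 66 with quantile normalization, 121 with normexp, 127 with normexp and quantile, 122 in the deposited table, 19 without a filter, 119 with trend and robust eBayes, 78 with Ddx3y and 15 with Xist as covariate, and 11 without wild-type 3 and 4. Higher counts were 14 with quantile and with median scaling, 24 with normexp and quantile, 20 in the deposited table, 0 without a filter, 30 with trend and robust, 3 with Xist and 2 without wild-type 3 and 4. Leaving out 1 array gave 14 to 66 lower and 0 to 24 higher: 66 and 24 without wild-type 1, 20 and 0 without wild-type 2, 19 and 1 without wild-type 3, 18 and 3 without wild-type 4, 27 and 3 without knockout 1, 18 and 1 without knockout 3, and 14 and 0 without knockout 4. Leaving out replicate 4 in each genotype gave 6 lower and 0 higher.

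Pathway genes called lower were 0 in the main setting, 1 (Lipc) with quantile normalization, with probes well above background on all 8 arrays and with the mean over probes, and 2 (Lipc and Cyp39a1) with normexp, with normexp and quantile, in the deposited table and with trend and robust. Leaving out 1 array gave 0 to 1, and none was called higher in any setting.

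With the replicate block 17 genes were lower and 2 higher, Abcg5 was called and Abcg8 was not. Same-numbered arrays deviated from their group means with correlations of -0.11 to 0.07 over all genes, so no shared deviation by number was seen. With 4 arrays per group this cannot settle whether the numbers pair littermates. The causes of these shifts were not tested. Fewer arrays and dim signals, as for Abcg8 and Npc1l1, limit the precision.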
